A study of Mus musculus with 12 samples.

Results

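The PGC-1 coactivators, the metabolic nuclear receptors they work with and a few factors of mitochondrial gene control were followed in mouse kidneys after ischemia and reperfusion, with and without earlier exposure to low oxygen. Members were chosen by symbol, and all 10 of them, Ppargc1a, Ppargc1b, Nrip1, Ppara, Ppard, Rxra, Esrra, Esrrg, Nrf1 and Tfam, had a row among the 25553 genes of the deposited table. The set is wider than its name, since Nrip1 encodes a corepressor, and Nrf1 (nuclear respiratory factor 1) and Tfam encode DNA-binding proteins that are not nuclear receptors.

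Kidney RNA was sequenced from 12 wild-type mice in 4 groups of 3. The preconditioned RIRI group stayed in a chamber at 8% oxygen, approached gradually within 20 min, in daily sessions that lasted 2, then 4, then 8 h over 3 days, and then underwent renal ischemia-reperfusion injury (RIRI), for which both renal pedicles were clamped for 45 min and the kidneys taken after 12 h of reperfusion. The normoxic RIRI group had the same surgery without the low oxygen, the preconditioned sham group had the low oxygen without the injury, and the normoxic sham group had neither. The labels give the genotype as wild type, and no strain, age or sex.

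In the kidney, tubules burn mostly fatty acids, and their supply of energy depends on mitochondria. PGC-1alpha and PGC-1beta bind no DNA themselves. They are recruited by receptors such as the PPARs and the estrogen-related receptors (ERRs), and switch on genes of fatty acid oxidation, the tricarboxylic acid (TCA) cycle and the respiratory chain. NRF1 acts on nuclear genes for mitochondrial proteins, and TFAM packages and transcribes mitochondrial DNA.

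The unit is FPKM, fragments per kilobase of gene scaled to library size, so that levels can be set side by side between genes. Depth recovered from the FPKM steps was 33096854 to 35707662 reads per library, and the members had from 209 reads (Ppargc1b in normoxic RIRI mouse 2) to 6831 reads (Rxra in normoxic sham mouse 1). All 10 proximal tubule markers and all 8 markers of the thick ascending limb were in the table, and summed proximal tubule markers reached 5374 to 5673 FPKM in normoxic sham kidneys. Skeletal muscle and adrenal markers summed to under 1 FPKM in every library, while adipose markers summed to 0.126 to 7.03 FPKM. Preconditioned RIRI mouse 2 stood apart within its group: it had the highest levels of Ppargc1a, Esrra, Esrrg and Tfam, the highest proximal tubule, thick ascending limb and distal sums, and 61.1 FPKM of the lipid droplet gene Plin2, against 339 and 356 FPKM in mice 1 and 3. Results that rest on it are given with and without it.

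Most of the set was lower after injury. Injured kidneys with preconditioning had 4 members higher than injured kidneys without it, beside 24.7% of all genes higher. Between the sham groups none was called, beside 0.421% of all genes. In normoxic RIRI against normoxic sham kidneys, 7 of 10 members passed an adjusted p of 0.05 (limma across 12357 genes), 6 of them lower and Nrf1 alone higher. In this comparison 71.7% of all genes tested were called, 41.6% higher and 30.1% lower, so that the count of calls is close to the background. The median log2 difference was -0.60 over the 10 members and 0.10 over all genes tested. In preconditioned RIRI against preconditioned sham kidneys 7 members were called, all 7 lower, where 52.4% of all genes were called, 33% higher and 19.4% lower. Their median was -0.33, against 0.10 over all genes.

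Between the injured groups, 4 members were higher in preconditioned RIRI than in normoxic RIRI kidneys and 0 were lower, beside 42.1% of all genes called (24.7% of all genes higher and 17.4% lower). The median was 0.19 over the members and 0.06 over all genes. The injury effect itself differed between preconditioned and normoxic mice for 2 members, Ppargc1a and Esrra, where 23.9% of all genes were called. Between the sham groups limma called 0 members, beside 0.421% of all genes, 1 member (Ppargc1a) had an unadjusted p under 0.05, and voom on the recovered reads also called 0. Summed red blood cell markers were at 1655 to 2039 FPKM in preconditioned sham and 691 to 963 FPKM in normoxic sham kidneys. Of these 5 markers limma called 0 (adjusted p of 0.224 to 0.320), while all 5 had an unadjusted p under 0.05. Their part in the sham comparison was not tested. The comparisons share groups, so their values are set side by side and were not counted as independent of each other.

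**Figure D1:**
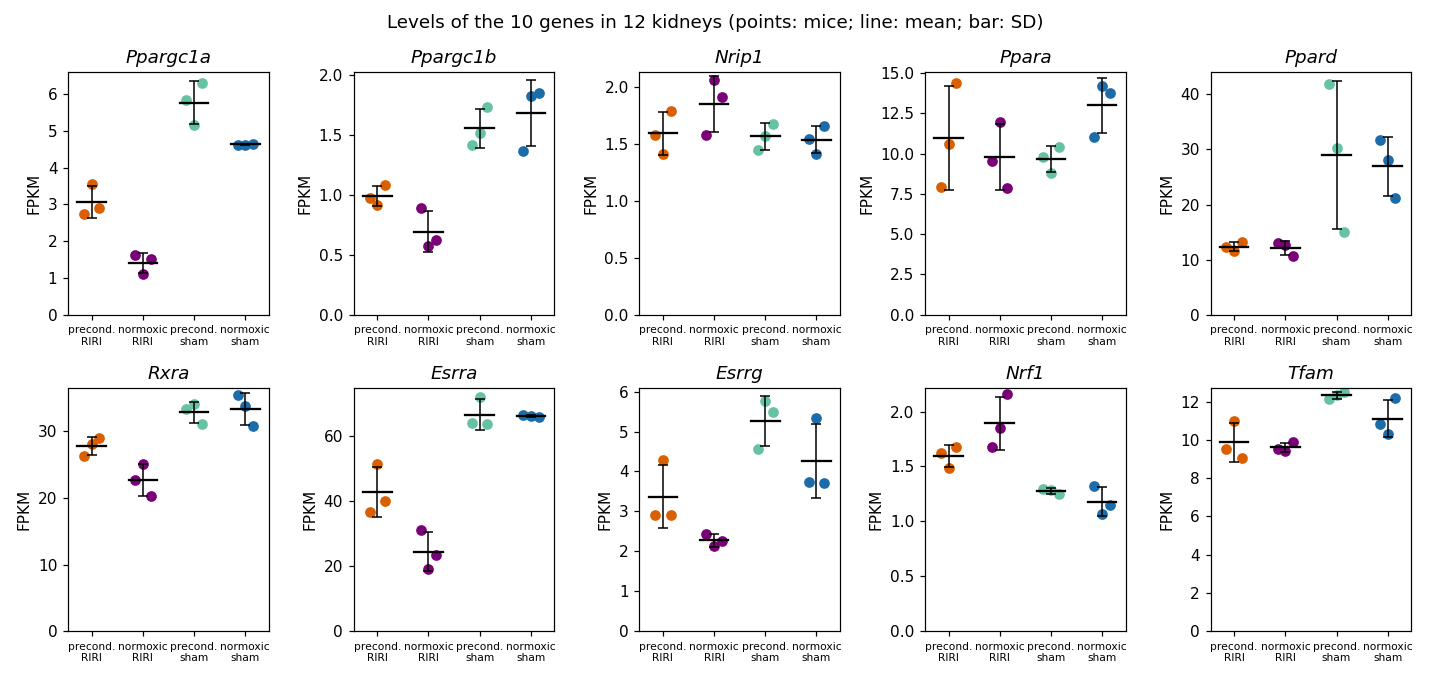
FPKM of each of the 10 members in every mouse, with groups from left to right as preconditioned RIRI, normoxic RIRI, preconditioned sham and normoxic sham; the line is the mean and the bar the SD of 3 mice. Ppargc1a and Esrra are lowest in normoxic RIRI, intermediate in preconditioned RIRI and highest in both sham groups, while Nrf1 is highest in normoxic RIRI.

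Ppargc1a encodes PGC-1alpha, the inducible coactivator of mitochondrial genes. It stood at 2.74, 3.56 and 2.91 FPKM in the preconditioned RIRI mice, 1.62, 1.10 and 1.52 FPKM in the normoxic RIRI mice, 5.83, 5.15 and 6.30 FPKM in the preconditioned sham mice and 4.62, 4.62 and 4.65 FPKM in the normoxic sham mice. No group overlapped another, so that every mouse of a group lay on its own side of every mouse of the next. As a share of the normoxic sham mean, Ppargc1a was at 66.3% ± 9.34 in preconditioned RIRI, 30.6% ± 5.90 in normoxic RIRI and 124% ± 12.5 in preconditioned sham kidneys (SD, n = 3).

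The gene fell with injury in normoxic mice, by 1.23 ± 0.10 on the log2 scale (SE, adjusted p = 7.78e-07), and in preconditioned mice, by 0.73 ± 0.10 (adjusted p = 0.000136). Injured preconditioned kidneys had 0.75 ± 0.10 log2 units more than injured normoxic ones (adjusted p = 0.000269). This call held in all 21 alternatives, and without preconditioned RIRI mouse 2 the difference was 0.67 (adjusted p = 0.00126). Because 1 is added to FPKM before the logarithm, such differences are damped for low genes. On recovered reads, Ppargc1a differed by -1.73 in normoxic RIRI against normoxic sham and by 1.13 in preconditioned RIRI against normoxic RIRI. The higher level in preconditioned sham than in normoxic sham kidneys (log2 difference 0.26 ± 0.10) did not pass the test (adjusted p = 0.294), although the groups did not overlap, which was so for 2 members and for 29.4% of all genes.

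Ppargc1a lies at chr5:51454250-51567726 on the minus strand (GENCODE M21, GRCm38). Its promoter window is shown because no other member separated all 4 groups. The window covers chr5:51567676-51567975 of RefSeq build GRCm38.p6, minus strand, 250 bases before to 50 bases after the start, printed 5′ to 3′. No letters are in capitals, because none of the 5 motifs searched on both strands was in it. They were the ERR element TCAAGGTCA, its looser form TNAAGGTCA, the nuclear receptor half-site AGGTCA, which both of these contain, the NRF1 half-site GCGCATGC and the cAMP element TGACGTCA. Their shares among all 32851 promoter windows were 0.423%, 1.28%, 16.3%, 2.71% and 1.79% in that order.
Ppargc1a: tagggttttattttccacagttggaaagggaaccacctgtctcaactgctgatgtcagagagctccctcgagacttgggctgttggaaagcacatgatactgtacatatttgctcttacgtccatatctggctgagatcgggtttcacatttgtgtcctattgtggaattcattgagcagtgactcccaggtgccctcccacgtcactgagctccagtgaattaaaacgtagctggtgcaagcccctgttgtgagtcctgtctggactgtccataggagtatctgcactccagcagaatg

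Ppargc1b, for the related coactivator PGC-1beta, was the scarcest member in both injured groups. Its levels were 0.973, 0.916 and 1.08 FPKM in preconditioned RIRI mice, 0.887, 0.575 and 0.619 FPKM in normoxic RIRI mice, 1.42, 1.51 and 1.73 FPKM in preconditioned sham mice and 1.36, 1.82 and 1.85 FPKM in normoxic sham mice. Only 1 of the injured libraries reached the filter value of 1 FPKM, so the gene was tested because of its sham levels. It fell with injury by 0.66 ± 0.10 in normoxic mice (adjusted p = 0.000114) and by 0.36 ± 0.10 in preconditioned mice (adjusted p = 0.0120). All 3 preconditioned RIRI mice lay above all 3 normoxic RIRI mice. In one direction or the other these groups did not overlap for 6 of 10 members (5 higher and Nrf1 lower) and for 47.7% of all genes. The difference of 0.24 ± 0.10 did not pass (adjusted p = 0.0851). On recovered reads it was 0.54 and was called (adjusted p = 0.0422), and it was also called without normoxic RIRI mouse 1 (adjusted p = 0.0326). The injury effects on recovered reads were -1.29 in normoxic and -0.65 in preconditioned mice.

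Nrip1 encodes RIP140, a corepressor that opposes PGC-1 at the same receptors. It ranged over 1.42 to 1.79 FPKM in preconditioned RIRI, 1.58 to 2.07 FPKM in normoxic RIRI, 1.45 to 1.68 FPKM in preconditioned sham and 1.42 to 1.66 FPKM in normoxic sham kidneys. The groups overlapped in every comparison and none was called. Its log2 difference in normoxic RIRI against normoxic sham was 0.17 ± 0.09 (adjusted p = 0.120), and it passed only without normoxic RIRI mouse 1 (0.24, adjusted p = 0.0403).

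Among the receptors, Ppara and Ppard encode the fatty acid sensors PPARalpha and PPARdelta, and Rxra encodes RXRalpha, with which both pair on DNA. Ppara was at 7.93, 10.6 and 14.4 FPKM in preconditioned RIRI mice, 9.51, 11.9 and 7.86 FPKM in normoxic RIRI mice, 9.79, 8.80 and 10.4 FPKM in preconditioned sham mice and 11.02, 14.2 and 13.7 FPKM in normoxic sham mice. The coefficient of variation was 29.6% in preconditioned RIRI and 21.0% in normoxic RIRI kidneys, and all groups overlapped except the sham groups.

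No comparison called Ppara. The log2 difference was -0.39 ± 0.19 in normoxic RIRI against normoxic sham (adjusted p = 0.0788) and 0.13 ± 0.19 in preconditioned RIRI against preconditioned sham (adjusted p = 0.569). The first of these was called under 5 of 21 alternatives, among them both rescalings of the libraries and the fit without normoxic RIRI mouse 2 (-0.53, adjusted p = 0.0297). In preconditioned sham kidneys all 3 mice were below all 3 normoxic sham mice, with a difference of -0.39 ± 0.19 that was not called (adjusted p = 0.378).

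Ppard was lower in every injured kidney than in any sham kidney. Its levels were 12.4, 11.6 and 13.2 FPKM in preconditioned RIRI mice, 12.96, 12.6 and 10.7 FPKM in normoxic RIRI mice, 41.8, 30.3 and 14.96 FPKM in preconditioned sham mice and 31.7, 28.2 and 21.2 FPKM in normoxic sham mice. The sham groups were wide, and preconditioned sham mouse 3 came close to the injured range. Ppard fell by 1.08 ± 0.28 in normoxic RIRI against normoxic sham (adjusted p = 0.00384) and by 1.06 ± 0.28 in preconditioned RIRI against preconditioned sham (adjusted p = 0.00700). Both injured groups stood at a like level, 45.8% ± 2.94 of the normoxic sham mean in preconditioned RIRI and 44.9% ± 4.48 in normoxic RIRI kidneys (SD, n = 3). The difference between the injured groups was 0.03 ± 0.28 (adjusted p = 0.938).

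Rxra moved less. It was at 26.4, 28.1 and 29.1 FPKM in preconditioned RIRI mice, 22.7, 25.0 and 20.2 FPKM in normoxic RIRI mice, 33.4, 34.1 and 31.1 FPKM in preconditioned sham mice and 35.5, 33.8 and 30.8 FPKM in normoxic sham mice. Both injured groups lay below both sham groups, with the preconditioned RIRI mice between the normoxic RIRI mice and the sham mice. It fell by 0.54 ± 0.09 in normoxic RIRI against normoxic sham (adjusted p = 0.000127) and by 0.23 ± 0.09 in preconditioned RIRI against preconditioned sham (adjusted p = 0.0401). In preconditioned RIRI it was 0.29 ± 0.09 above normoxic RIRI (adjusted p = 0.0187). These last 2 calls were narrow. The difference from preconditioned sham lost its call without a filter, and without preconditioned RIRI mouse 1 or 2, preconditioned sham mouse 1 or 2, or normoxic sham mouse 2, with adjusted p up to 0.128. The difference from normoxic RIRI lost it without preconditioned RIRI mouse 2 (0.0518) or 3 (0.0590) or normoxic RIRI mouse 3 (0.0731). That call was also lost after median-ratio rescaling and in the fit of only the injured groups.

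Rxra was the only member with the half-site AGGTCA in a promoter window. That window, from 1 of its 2 RefSeq starts, covers chr2:27709042-27709341 on the plus strand of GRCm38.p6 and lies inside the gene, which spans chr2:27676440-27762957 in GENCODE M21. Capitals mark the half-site, found once on the minus strand (as TGACCT, bases -87 to -82 from the start) and once on the plus strand (bases -48 to -43).
Rxra: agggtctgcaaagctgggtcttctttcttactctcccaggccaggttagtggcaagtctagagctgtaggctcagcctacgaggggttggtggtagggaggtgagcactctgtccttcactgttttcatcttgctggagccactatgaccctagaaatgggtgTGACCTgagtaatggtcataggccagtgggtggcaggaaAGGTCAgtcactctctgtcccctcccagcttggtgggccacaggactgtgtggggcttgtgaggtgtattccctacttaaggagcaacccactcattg

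Esrra encodes ERRalpha, an orphan receptor driven by PGC-1alpha rather than by a ligand, and was the most abundant member in every group. It stood at 36.7, 51.5 and 40.2 FPKM in preconditioned RIRI mice, 31.0, 19.0 and 23.5 FPKM in normoxic RIRI mice, 64.2, 72.2 and 63.9 FPKM in preconditioned sham mice and 66.7, 66.2 and 65.9 FPKM in normoxic sham mice. Injured mice lay below all sham mice, and the preconditioned RIRI mice lay above the normoxic RIRI mice. Means were 64.6% ± 11.6 of normoxic sham in preconditioned RIRI and 37.0% ± 9.17 in normoxic RIRI kidneys (SD, n = 3).

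Esrra fell by 1.43 ± 0.15 with injury in normoxic mice (adjusted p = 5.75e-06) and by 0.64 ± 0.15 in preconditioned mice (adjusted p = 0.00445). Preconditioned RIRI exceeded normoxic RIRI kidneys by 0.79 ± 0.15 (adjusted p = 0.00206). The call held in all 21 alternatives, with 0.65 and an adjusted p of 0.00935 without preconditioned RIRI mouse 2. In sham kidneys the difference was 0.01 ± 0.15 (adjusted p = 0.990). Exons of Esrra share 73 bases with Trmt112 on the opposite strand (mean of 40.2 FPKM), and whether the counting used strand is not given in the sources used here, so part of the Esrra value may be reads of Trmt112.

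The Esrra promoter window is shown as the one called member that holds an NRF1 half-site, in capitals. It covers chr19:6921759-6922058 on the minus strand of GRCm38.p6, and the half-site is read as GCATGCGC at bases -34 to -27 from the start. Of the 15 windows found for 9 members, 2 held this half-site, those of Esrra and Ppara, and none held either form of the ERR element.
Esrra: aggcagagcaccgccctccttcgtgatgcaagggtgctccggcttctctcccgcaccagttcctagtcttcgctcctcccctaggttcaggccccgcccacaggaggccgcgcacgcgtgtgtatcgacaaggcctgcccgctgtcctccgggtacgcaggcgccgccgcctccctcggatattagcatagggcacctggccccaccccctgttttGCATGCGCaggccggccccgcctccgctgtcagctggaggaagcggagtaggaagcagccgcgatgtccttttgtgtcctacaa

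Esrrg, for the related receptor ERRgamma, was at 2.90, 4.29 and 2.91 FPKM in preconditioned RIRI mice, 2.43, 2.12 and 2.26 FPKM in normoxic RIRI mice, 4.56, 5.76 and 5.49 FPKM in preconditioned sham mice and 3.73, 5.33 and 3.72 FPKM in normoxic sham mice. Preconditioned RIRI mouse 2 was above the lowest normoxic sham mice, while the normoxic RIRI mice were the lowest 3 of all 12. The gene fell by 0.67 ± 0.14 in normoxic RIRI against normoxic sham (adjusted p = 0.00114) and by 0.53 ± 0.14 in preconditioned RIRI against preconditioned sham (adjusted p = 0.00824). It was 0.40 ± 0.14 higher in preconditioned RIRI than in normoxic RIRI (adjusted p = 0.0397). That call was lost in 9 of 21 alternatives. The difference was 0.26 without preconditioned RIRI mouse 2 (adjusted p = 0.162), and the call was also lost without normoxic RIRI mouse 1 (0.0502), 2 (0.102) or 3 (0.0823) or preconditioned sham mouse 3 (0.0506).

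Nrf1, which acts on nuclear genes of the respiratory chain and on Tfam, was the single member that rose. It was at 1.62, 1.49 and 1.67 FPKM in preconditioned RIRI mice, 1.68, 1.85 and 2.16 FPKM in normoxic RIRI mice, 1.30, 1.29 and 1.25 FPKM in preconditioned sham mice and 1.32, 1.06 and 1.15 FPKM in normoxic sham mice. Injured mice of each kind were above all sham mice. The rise was 0.41 ± 0.08 in normoxic RIRI against normoxic sham (adjusted p = 0.000881), and 0.69 on recovered reads. In preconditioned RIRI against preconditioned sham the difference was 0.19 ± 0.08 (adjusted p = 0.0797), and on recovered reads 0.32 and called (adjusted p = 0.0328).

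Tfam was at 9.55, 11.001 and 9.05 FPKM in preconditioned RIRI mice, 9.52, 9.43 and 9.86 FPKM in normoxic RIRI mice, 12.1, 12.3 and 12.5 FPKM in preconditioned sham mice and 10.9, 10.3 and 12.2 FPKM in normoxic sham mice. It fell by 0.30 ± 0.08 in preconditioned RIRI against preconditioned sham (adjusted p = 0.00857). The difference in normoxic RIRI against normoxic sham was -0.19 ± 0.08 with groups that did not overlap, and just missed the threshold (adjusted p = 0.0533). It was called in 6 of 21 alternatives, among them those without preconditioned RIRI mouse 2 (0.0310) or 3 (0.0468) or normoxic sham mouse 2 (0.0354). In preconditioned RIRI against normoxic RIRI the Tfam difference was 0.03 ± 0.08 (adjusted p = 0.785).

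Counting ranges, 8 of 10 members did not overlap between normoxic RIRI and normoxic sham mice (74.3% of all genes), and 8 of 10 between preconditioned RIRI and preconditioned sham mice (63.3% of all genes). The order of levels also shifted. In normoxic sham kidneys Esrra (66.3 ± 0.38 FPKM, SD, n = 3) stood above Rxra (33.4 ± 2.35), followed by Ppard, Ppara, Tfam, Ppargc1a, Esrrg, Ppargc1b, Nrip1 and Nrf1. Of these neighbours Rxra and Ppard, Ppara and Tfam, Ppargc1a and Esrrg, and Ppargc1b and Nrip1 overlapped. In normoxic RIRI kidneys Esrra (24.5 ± 6.08) overlapped Rxra (22.7 ± 2.41), and Ppargc1a (1.41 ± 0.27) ranked below Nrf1, from which it was clear, and below Nrip1, which it overlapped. Preconditioned RIRI kept Esrra clear of Rxra and Ppargc1a clear of Nrip1.

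The injury effect in preconditioned minus that in normoxic mice was 0.49 ± 0.15 for Ppargc1a (adjusted p = 0.0329; 0.82 on recovered reads) and 0.78 ± 0.22 for Esrra (adjusted p = 0.0247), a smaller decrease in preconditioned mice for both. For the other 8 it ranged from -0.22 (Nrf1) to 0.52 (Ppara) with no call. The Ppargc1a call was lost in 9 of 20 alternatives and the Esrra call in 5. Without preconditioned RIRI mouse 2 the values were 0.41 (adjusted p = 0.0733) and 0.65 (adjusted p = 0.0530). Leaving out preconditioned sham mouse 1 or normoxic sham mouse 1 also ended both calls. Leaving out preconditioned sham mouse 3 ended the Esrra call (0.0540), while without preconditioned sham mouse 2, normoxic sham mouse 2 or 3, or normoxic RIRI mouse 2 the Ppargc1a call was lost, with adjusted p of 0.0560 to 0.0760.

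**Figure D2:**
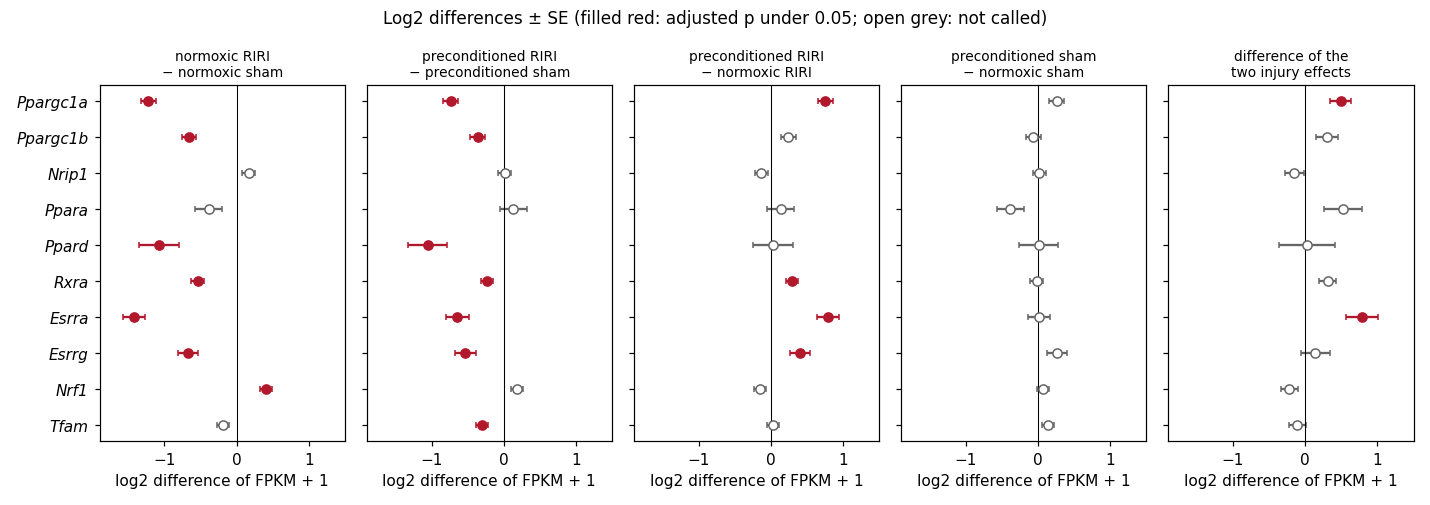
Log2 difference of FPKM + 1 with its SE for each member in the 5 comparisons, each panel named as first group minus second; filled red points passed an adjusted p of 0.05. Most points lie left of 0 in both injury panels, the 4 filled points of preconditioned RIRI minus normoxic RIRI lie right of 0, and no point is filled between the sham groups.

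Summed markers of tubule segments, like most but not all members, were lower in injured kidneys than in sham kidneys with the same oxygen exposure. Summed proximal tubule markers were at 2478 to 2819 FPKM in preconditioned RIRI, 1803 to 2335 in normoxic RIRI, 5188 to 5389 in preconditioned sham and 5374 to 5673 in normoxic sham kidneys. All 10 of these markers were called lower in each injury comparison, beside 30.1% of all genes in normoxic and 19.4% in preconditioned mice. Between the injured groups 7 of 10 were called higher in preconditioned RIRI than in normoxic RIRI, beside 24.7% of all genes. Sums of 8 thick ascending limb markers were 1730 to 2034, 1152 to 1658, 2370 to 2602 and 2057 to 2243 FPKM in the same order of groups, with 6 of 8 higher in preconditioned RIRI than in normoxic RIRI. For 12 distal tubule and collecting duct markers the sums were 445 to 743, 273 to 345, 779 to 923 and 601 to 629 FPKM. Leukocyte markers summed to 76.4 to 146, 185 to 298, 37.1 to 39.0 and 38.4 to 61.8 FPKM, and they did not all go one way. Of 8 tested, S100a8, S100a9, Cd68, Itgam and Csf3r rose in both injury comparisons, beside 41.6% of all genes higher in normoxic and 33% in preconditioned mice. Csf1r fell (-1.37 in normoxic and -0.99 in preconditioned mice), and Ptprc and Lyz2 did not pass. Adipose markers summed to 1.71 to 2.14, 3.34 to 7.03, 1.84 to 5.42 and 0.126 to 4.91 FPKM. Of the 2 tested, in normoxic RIRI against normoxic sham Cidec rose (1.77 ± 0.26) and Ucp1, the brown fat uncoupling protein, fell (-0.92 ± 0.34, adjusted p = 0.0293). Voom on the recovered reads called 1 of these 2. In normoxic sham mouse 1 all 5 adipose markers together summed to 0.126 FPKM, so Ucp1 was at most at that level there. No gene of these 5 lists was at 0 in all 3 mice of a group. Their part in the differences between groups was not tested, and in whole kidney fewer cells of a type and less RNA per cell cannot be told apart.

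**Figure D3:**
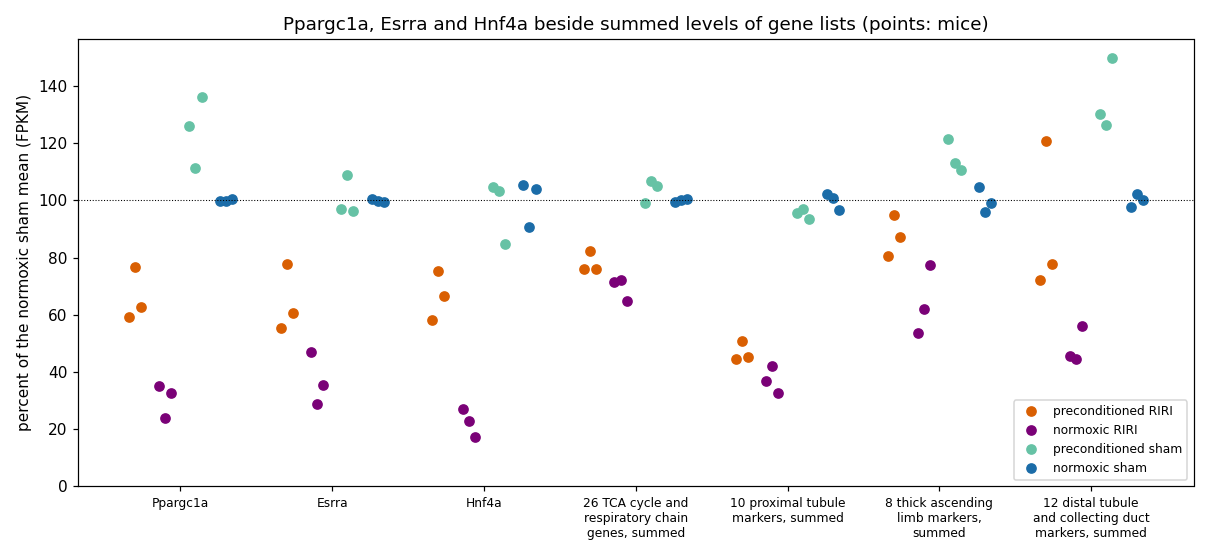
FPKM of Ppargc1a, Esrra and Hnf4a and summed FPKM of 4 gene lists in every mouse, as a percent of the normoxic sham mean (dotted line at 100); groups run from left to right as preconditioned RIRI, normoxic RIRI, preconditioned sham and normoxic sham. The normoxic RIRI mice sit lowest for the 3 genes, and preconditioned RIRI mouse 2 is the highest of its group in each column.

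Other parts of the PGC-1 circuit did not all follow Ppargc1a. To read the list medians below, the medians of all genes tested were 0.10 in both injury comparisons and 0.06 between the injured groups. Of 20 regulators and coregulators, 11 rose and 5 fell in normoxic RIRI against normoxic sham (median 0.30), beside 41.6% of all genes higher and 30.1% lower. The third family member, Pprc1, rose to 10.6, 9.27 and 11.8 FPKM in normoxic RIRI mice, against 1.89, 2.06 and 2.07 FPKM in normoxic sham mice (1.94 ± 0.12, adjusted p = 8.39e-08). Prkaa1, a catalytic subunit of the energy sensor AMPK, rose by 0.93 ± 0.10 (adjusted p = 5.29e-06). The decreases were led by Perm1, a muscle regulator of PGC-1 and ERR targets (-1.42 ± 0.13, adjusted p = 1.9e-06), and by Lpin1, a phosphatidate phosphatase that also coactivates with PGC-1alpha (-1.57 ± 0.17, adjusted p = 4.65e-06). Perm1 reached 1 FPKM in sham mice only. The AMPK subunit Prkaa2, the corepressor Ncor1 and the coactivator Ncoa1 fell by 0.27 to 0.29.

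In preconditioned RIRI against preconditioned sham kidneys 6 of the 20 rose and 3 fell, near the background of 33% and 19.4% of all genes. Pprc1 (1.43 ± 0.12) and Perm1 (-1.26 ± 0.13) were first among them. Of the 20, 3 were higher and 4 lower in preconditioned RIRI than in normoxic RIRI, near the background of 24.7% and 17.4% of all genes. Ncor1 (0.32 ± 0.07, adjusted p = 0.00487), Lpin1 (0.72 ± 0.17, adjusted p = 0.00516) and Ncoa1 (0.29 ± 0.08, adjusted p = 0.0163) were higher in preconditioned RIRI. Prkaa1 was lower (-0.35 ± 0.10, adjusted p = 0.0163), as was Pprc1 (-0.39 ± 0.12, adjusted p = 0.0241). The 4 lower calls became 0 without preconditioned RIRI mouse 2, 2 without preconditioned RIRI mouse 3 or normoxic RIRI mouse 2, 1 without normoxic RIRI mouse 3, and 0 in the fit of only the injured groups.

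Of 22 further metabolic nuclear receptors 18 were tested, and 13 fell, 1 rose and 4 did not pass in normoxic RIRI against normoxic sham (median -0.67), beside 30.1% of all genes lower. Hnf4a, which sustains the proximal tubule program, stood at 124, 160 and 142 FPKM in preconditioned RIRI mice, 57.9, 48.9 and 36.8 FPKM in normoxic RIRI mice, 223, 220 and 181 FPKM in preconditioned sham mice and 225, 194 and 222 FPKM in normoxic sham mice. It fell by 2.15 ± 0.15 in normoxic RIRI against normoxic sham (adjusted p = 1.75e-07). Decreases were also called for the thyroid hormone receptor Thra (-1.32 ± 0.08), the vitamin D receptor Vdr (-1.84 ± 0.16) and the glucocorticoid receptor Nr3c1 (-0.75 ± 0.09), each with an adjusted p of at most 7.82e-06. The liver X receptor Nr1h2 rose by 0.17 ± 0.06 (adjusted p = 0.0235), a call that was absent under both rescalings, in the fit of only these groups and without normoxic sham mouse 1 or 3.

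After preconditioning, 9 of the 18 fell with injury (19.4% of all genes were lower), 8 did not pass and Nr1i2, the pregnane X receptor, rose (0.56 ± 0.22, adjusted p = 0.0471), a call lost in most alternatives, among them those without any 1 of the preconditioned RIRI or normoxic sham mice or without preconditioned sham mouse 3 or normoxic RIRI mouse 1. Set against normoxic RIRI, 11 of 18 were higher in preconditioned RIRI and 0 lower (median 0.43), beside 24.7% of all genes higher, led by Hnf4a (1.57 ± 0.15, adjusted p = 3.14e-05), Thra (0.62 ± 0.08, adjusted p = 0.00014) and the liver X receptor Nr1h3 (0.73 ± 0.12, adjusted p = 0.000799). The injury effect differed between preconditioned and normoxic mice for 7 of 18, beside 23.9% of all genes called. All 7 had a smaller decrease or a higher value in preconditioned mice, with Hnf4a at 1.61 ± 0.22 (adjusted p = 0.000866).

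Of 26 tested genes known as PPARalpha targets, 12 rose and 5 fell in normoxic RIRI against normoxic sham (median 0.27). The 12 higher are near the background share of 41.6% of all genes, and 30.1% of all genes were lower. The lipid droplet coat gene Plin2 was at 861, 1262 and 1427 FPKM in normoxic RIRI mice, against 5.65, 5.73 and 4.76 FPKM in normoxic sham mice (7.51 ± 0.51, adjusted p = 1.26e-07). Increases were also called for Fgf21, a fasting hormone (2.84 ± 0.26), and for the acyl-CoA thioesterase Acot2 (2.53 ± 0.24). The oxidation enzymes Acadm (-1.45 ± 0.11), Acaa2 (-0.89 ± 0.12), Hadhb (-0.45 ± 0.08) and Decr1 (-0.35 ± 0.10) fell, as did the fatty acid transporter Cd36 (-0.78 ± 0.14).

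In preconditioned RIRI against preconditioned sham kidneys 9 of 26 rose, near the background of 33% of all genes, and 2 fell, beside 19.4% of all genes lower. Plin2 was at 5.01 ± 0.51 and Acaa2 at -0.95 ± 0.12 in this comparison. Cd36, lower after injury in normoxic mice, rose by 0.40 ± 0.14 (adjusted p = 0.0289), and its injury effects differed by 1.17 ± 0.19 (adjusted p = 0.00218). Against normoxic RIRI, 5 were higher and 5 lower in preconditioned RIRI, near the background of 24.7% of all genes higher and 17.4% lower. The count of higher genes was 9 without preconditioned RIRI mouse 2. The lower ones included Pdk4, which shuts pyruvate out of the TCA cycle (-3.27 ± 0.56, adjusted p = 0.000973), Acot2 (-1.25 ± 0.24) and Plin2 (-2.56 ± 0.51). The higher ones included Hadhb (0.40 ± 0.08, adjusted p = 0.00164), Decr1 (0.39 ± 0.10) and Acadm (0.43 ± 0.11). Among sham kidneys this list held the only calls of the 6 lists: Cd36 was at 78.2, 70.6 and 52.2 FPKM in preconditioned sham mice, against 114, 128 and 118 FPKM in normoxic sham mice (-0.85 ± 0.14, adjusted p = 0.0223), a call lost without any 1 of the normoxic sham mice. Cyp4a14, a fatty acid hydroxylase, was at 28.3, 60.3 and 51.8 FPKM in preconditioned sham mice, against 1.72, 1.75 and 1.93 FPKM in normoxic sham mice (4.02 ± 0.75, adjusted p = 0.0474). The Cyp4a14 call was lost without a filter, under quantile normalization, on recovered reads, without any 1 of the sham mice, and without preconditioned RIRI mouse 1 or 3 or normoxic RIRI mouse 1, among others.

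Of 26 targets of the ERRs and PGC-1 in the TCA cycle and respiratory chain, 22 fell and 0 rose with injury in normoxic mice (median -0.57), and 22 fell and 0 rose in preconditioned mice (median -0.39). Over all genes 30.1% and 19.4% were lower in these comparisons. The complex I subunit Ndufs1 was at 54.1, 56.6 and 48.6 FPKM in preconditioned RIRI mice, 37.8, 34.3 and 38.0 FPKM in normoxic RIRI mice, 80.6, 80.3 and 79.3 FPKM in preconditioned sham mice and 75.6, 77.5 and 82.6 FPKM in normoxic sham mice. It fell by 1.08 ± 0.07 in normoxic RIRI against normoxic sham (adjusted p = 1.24e-07), and the complex II subunit Sdha fell by 0.82 ± 0.06 (adjusted p = 1.72e-07). Relative to normoxic RIRI, 14 of 26 were higher in preconditioned RIRI and 0 lower (median 0.24), beside 24.7% of all genes higher and 17.4% lower. Ndufs1 was at 0.52 ± 0.07 (adjusted p = 0.000279) and Suclg1, of succinyl-CoA ligase, at 0.49 ± 0.08 (adjusted p = 0.000541). In the fit of only the injured groups, 7 were higher. The injury effect differed for 4 of the 26, Ndufs1, Suclg1, Sdha and Idh3b, by 0.31 to 0.49. That count is near the background, since 23.9% of all genes were called for this difference (11.3% higher and 12.6% lower).

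Of 14 tested genes of mitochondrial DNA transcription and replication, 2 rose and 6 fell in normoxic RIRI against normoxic sham (median -0.17), where 71.7% of all genes were called. The count of 2 was 1 under both rescalings and without normoxic sham mouse 2, and 3 without preconditioned RIRI mouse 1 or normoxic RIRI mouse 2. The nuclease Mgme1 fell by 0.67 ± 0.12 (adjusted p = 0.000332) and the ribosomal RNA methyltransferase Tfb1m by 0.50 ± 0.10 (adjusted p = 0.00087), while the polymerase Polg rose by 0.38 ± 0.07 (adjusted p = 0.00044) and the single-strand binding protein Ssbp1 by 0.25 ± 0.08 (adjusted p = 0.0122). In preconditioned RIRI against preconditioned sham, where 19.4% of all genes were lower, 1 fell, Polg2 (-0.37 ± 0.11, adjusted p = 0.0126), which was not called without preconditioned sham mouse 3. Higher in preconditioned RIRI than in normoxic RIRI were 4, near the background of 24.7% of all genes, Tfb1m (0.56 ± 0.10), Top1mt (0.50 ± 0.09), Polrmt (0.32 ± 0.08) and Mgme1 (0.47 ± 0.12). Of the 13 mRNAs of the mitochondrial genome, 5 fell with injury in normoxic mice (median -0.28, beside 30.1% of all genes lower), with COX2 lowest in adjusted p (-0.44 ± 0.10, adjusted p = 0.00172). After preconditioning 1 fell, ND6 (-0.49 ± 0.19, adjusted p = 0.0457), beside 19.4% of all genes lower. The ND6 call was lost without any 1 of the preconditioned RIRI mice, preconditioned sham mouse 2 or 3, normoxic RIRI mouse 3 or normoxic sham mouse 2. Between the injured groups limma called 0 of the 13, beside 42.1% of all genes. Of the 13, 1 (COX2) had an unadjusted p under 0.05, and voom called 0. In limma 1 was called without normoxic RIRI mouse 1 or normoxic sham mouse 1.

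**Figure D4:**
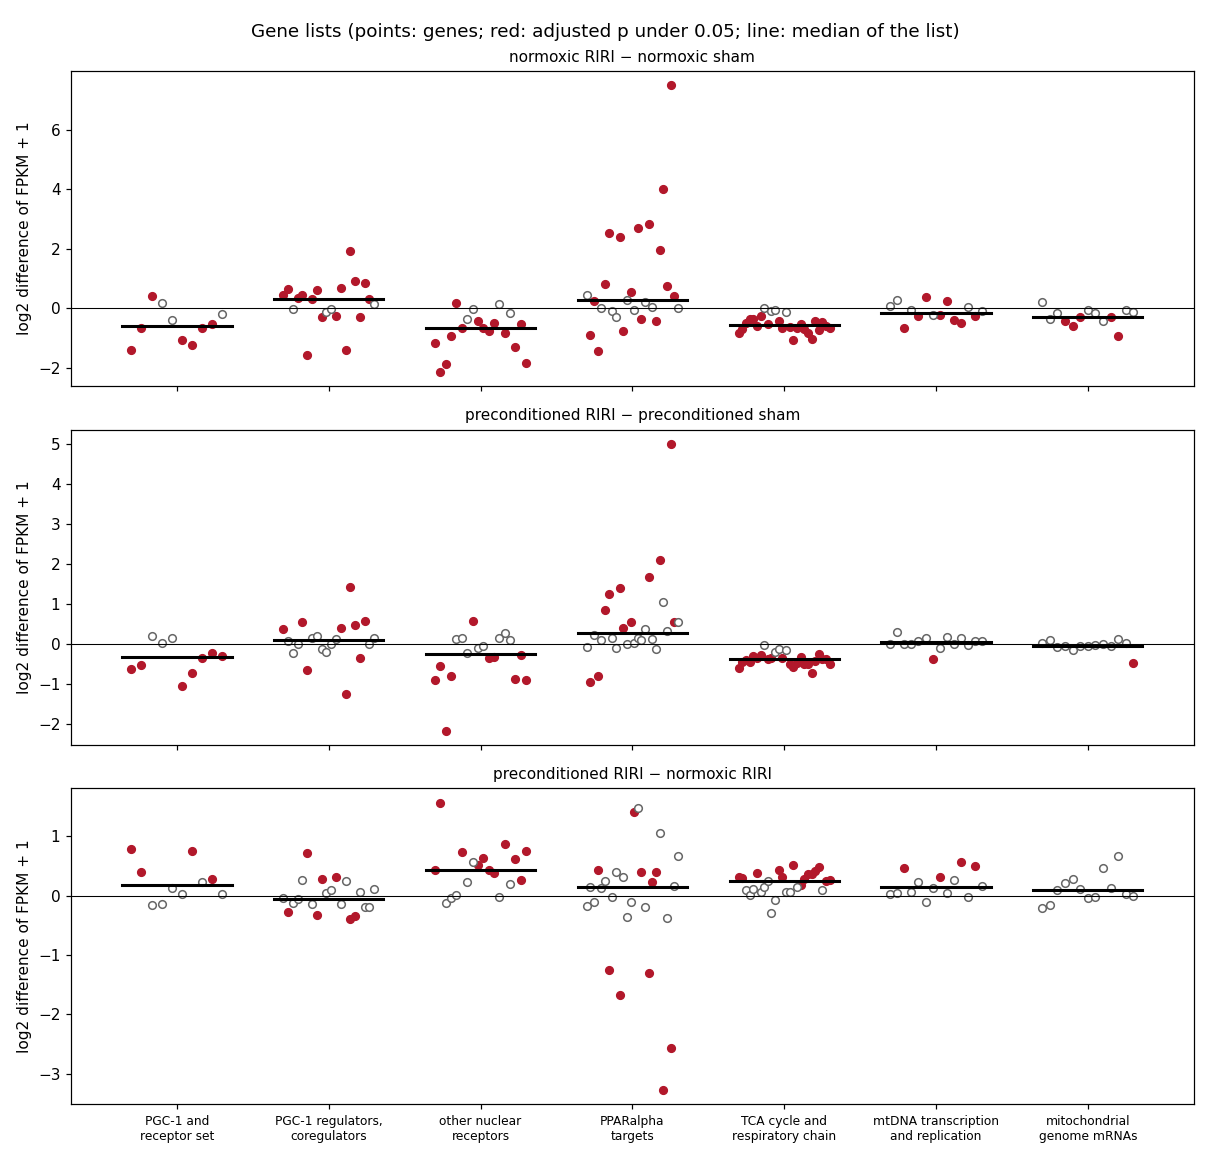
Log2 difference of FPKM + 1 of every tested gene in 7 lists for normoxic RIRI minus normoxic sham (top), preconditioned RIRI minus preconditioned sham (middle) and preconditioned RIRI minus normoxic RIRI (bottom); red points passed an adjusted p of 0.05 and the line is the median of the list. The TCA cycle and respiratory chain genes that passed lie below 0 in the upper panels and above 0 in the lowest one, while PPARalpha targets spread to both sides.

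Among 7387 tested genes with a mean of at least 5 FPKM, those whose profile over the 12 libraries came closest to Ppargc1a were Bcat2, Gstt3 and Dbt, by a root mean square difference of 0.08, 0.10 and 0.10 log2 units between profiles centred on their own means. Bcat2 and Dbt encode enzymes of branched-chain amino acid breakdown. Bcat2 averaged 25.2 FPKM in preconditioned RIRI, 15.5 in normoxic RIRI, 42.5 in preconditioned sham and 35.5 in normoxic sham kidneys, the order of groups seen for Ppargc1a. Asb13, Narf and Srr came closest to Esrra (0.10, 0.11 and 0.11). For Nrip1, whose spread over all libraries was 0.11, Clip1, Rnf215 and Vezf1 were closest (0.06 each). No gene came as close to Ppara, where H1f2, H2aj and Natd1 differed by 0.18, 0.19 and 0.20.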

How the data were processed

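RNA was extracted from frozen kidney with TRIzol, the VAHTS Universal V10 kit gave the libraries, and a DNBSEQ-T7 read them in batch 1, per the labels. The authors deposited 1 table of FPKM for 12 libraries. The submitters' processing notes name mm10, HTSeq and DESeq2 without versions; the aligner, gene annotation and strand setting were not stated there. Proteomic data were not analysed here.

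The test kept 12357 genes that reached 1 FPKM in 3 or more libraries. limma 3.58.1 in R 4.3.3 was fitted to log2(FPKM + 1) with 4 group means and a mean-variance trend, and genes were called at a Benjamini-Hochberg adjusted p under 0.05 over all genes tested. Log2 differences carry their SE, levels their SD. The labels say that each group had 3 mice. The code was tested on simulated data. No pair of libraries was a duplicate: the lowest chi-square per gene among 66 pairs was 10.5.

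Because FPKM moves in steps of 1 read, whole reads were recovered for 100% of the 25553 genes at a tolerance of 1e-06. Their totals differed from the depth given by the steps by at most 0.0162%, and limma voom on them was an alternative, which called 8861, 6500, 5337, 60 and 2938 genes in the injury comparisons without and with preconditioning, the injured groups, the sham groups and the interaction.

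The members, gene lists and marker lists were chosen with earlier results of these data known. All members are described, and of each list the 2 to 4 called genes with the smallest adjusted p, with those called against the list's direction. Decr1, Acadm and Pprc1 between the injured groups and Cd36 after preconditioning go beyond that rule and were chosen after their values were seen. Genes of like pattern were the 3 closest by root mean square difference. Positions are from GENCODE M21 (GRCm38), promoter windows from RefSeq (GRCm38.p6), which matched 9 of 10 members, all but Ppargc1b. Equal replicate numbers did not pair the mice. Beside voom, the alternatives left out each library in turn, dropped the filter or set it to 5, used a pseudocount of 0.1, rescaled libraries by median ratios or quantiles, fitted the compared groups alone, left out the trend, or added the replicate number as a block.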

Additional observations from a re-analysis of the deposited data

Results flagged for a closer look

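The injury effect differed between preconditioned and normoxic mice, by a test of that difference in limma, for Ppargc1a and for Esrra. These 2 of 10 members are near the background, since this test called 23.9% of all genes (11.3% higher and 12.6% lower). The log2 injury effect in preconditioned minus that in normoxic mice was 0.49 ± 0.15 (SE) for Ppargc1a and 0.78 ± 0.22 for Esrra, with adjusted p of 0.0329 and 0.0247. For both genes all 3 preconditioned RIRI mice lay above all 3 normoxic RIRI mice. In one direction or the other these groups did not overlap for 47.7% of all genes, and this compares the injured groups only. Across the alternatives the adjusted p ran from 0.00940 to 0.0760 for Ppargc1a and from 0.00372 to 0.0653 for Esrra. In the same fit 7 of 10 proximal tubule markers and 5 of 8 thick ascending limb markers were also called with a higher injury effect in preconditioned mice, beside 11.3% of all genes. The part of these markers in the result was not tested.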

How the results depend on the processing

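Among the alternatives that left out no library, the count of members called moved by over 1.5 times in 4 cases. The interaction called 2 members, against 0 without a filter and 1 with the replicate number as a block. Preconditioned RIRI against normoxic RIRI called 4, against 2 after median-ratio rescaling and 2 in the fit of only those groups; Ppargc1a and Esrra were the 2. Leaving out a library gave 7 to 9 calls in normoxic RIRI against normoxic sham, 6 to 7 in preconditioned RIRI against preconditioned sham, 2 to 4 between the injured groups, 0 to 0 between the sham groups and 0 to 3 for the interaction. Smaller moves were to 9 under both rescalings and 6 at the filter of 5 in normoxic RIRI against normoxic sham (7), to 6 without a filter or at 5 and 8 with voom in preconditioned RIRI against preconditioned sham (7), and to 3 without a filter and 5 with voom between the injured groups (4). At the filter of 5, Ppargc1b, Nrip1 and Nrf1 were not tested, and no tested member lost its call in either injury comparison. The block changed no other count of members; replicates with the same number had correlated deviations of -0.248 to 0.165, and 5 of 12 matched their own number best.

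Without rescaling, the median of all genes was 0.10 in both injury comparisons and 0.06 between the injured groups, and -0.0019, -0.0024 and -0.0033 after median-ratio rescaling. The share of calls that were higher was 58.7% between the injured groups, 48.2% after either rescaling; 63.0% in preconditioned RIRI against preconditioned sham, 49.4% with median ratios and 51.1% with quantiles. Between the sham groups it was 44.2%, 23.9% with median ratios and 23.3% with quantiles. The fit of only the groups compared called 3373 genes between the injured groups, against 5203, and 303 between the sham groups, against 52. Leaving out a library gave 23 to 80 calls between the sham groups. A block gave 35 there.

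Signs turned only for members that were not called. With median ratios, Nrip1 was at -0.060 in preconditioned RIRI against preconditioned sham, Ppard at -0.037 and Tfam at -0.036 in preconditioned RIRI against normoxic RIRI, and Nrip1, Ppard and Esrra at -0.034, -0.071 and -0.071 in preconditioned sham against normoxic sham. With quantiles, Nrip1 was at -0.010 and Tfam at -0.0035 in the same comparisons, and Nrip1 and Ppard at -0.064 and -0.044 between the sham groups. Leaving out a library gave -0.041 to 0.064 for Nrip1 and -0.066 to 0.33 for Ppara in preconditioned RIRI against preconditioned sham. It gave -0.064 to 0.33 for Ppara, -0.047 to 0.079 for Ppard and -0.043 to 0.085 for Tfam between the injured groups. Between the sham groups it gave -0.049 to 0.039 for Esrra, -0.020 to 0.049 for Nrip1, -0.31 to 0.41 for Ppard and -0.075 to 0.023 for Rxra, and for the interaction -0.0054 to 0.21 for Esrrg and -0.37 to 0.34 for Ppard. The cause was not tested.

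Among the lists, after median ratios 6 regulators were lower after injury in preconditioned mice, against 3, and with quantiles 8 mitochondrial mRNAs were lower in normoxic RIRI, against 5. The smallest exact p of 3 against 3 mice is 0.1, so single values were not tested alone.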
